A study of Mus musculus with 6 samples.

Results

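The genes described here build the melanosome, the pigment organelle, and make melanin inside it. They were taken by symbol from a list of 10 genes (PMEL, TYRP1, TYR, DCT, MLANA, OCA2, RAB27A, RAB38, GPR143 and SLC45A2). Of these, 9 had a row among the 16191 rows of the expression table, and GPR143 was not analysed here. According to the labels, RNA of the RPE-choroid complex (retinal pigment epithelium with the vascular choroid behind it) of C57BL/6J mice was sequenced 4 weeks after subretinal injection of an adeno-associated virus (AAV). The 3 AAV-PDGF-D libraries came from mice given a vector with human PDGF-D, and the 3 AAV-GFP libraries from mice given a GFP vector, in a study that obtained its mice as young adults. All 6 libraries thus share the injection and a viral vector, and the study placed the transgene under the human VMD2 promoter, described as specific to the pigment epithelium. By its labels, the comparison asks which genes differ when the pigment epithelium overexpresses PDGF-D. No source states whether the 3 libraries of a group came from separate mice, so p-values below reflect only how far these libraries scatter.

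The rows of the table are human genes, although the labels and the study's methods name mouse tissue and a mouse genome. Of the 16191 rows, 15504 carry a human Ensembl ID with a symbol, 687 are named as new human genes and 0 carry a mouse ID. The groups are therefore named by their labels, and the values describe the table rather than mouse RPE-choroids. The vector carries PDGFD in its human form. The PDGFD row held 5.24, 6.28 and 6.36 FPKM in the AAV-PDGF-D libraries, against 6.87, 6.56 and 6.86 FPKM in the AAV-GFP libraries. Every AAV-PDGF-D library thus lay below every AAV-GFP library, so PDGFD was lower rather than higher with its own label. HBA1, a hemoglobin chain, reached 219 FPKM in AAV-PDGF-D replicate 3 and 168 FPKM in AAV-GFP replicate 1, while the remaining 4 libraries had at most 0.319 FPKM. For most named genes, calls and adjusted p-values that were lost without these 2 libraries are named beside the result, with the value that was left. No such value is given for BHLHE40, CD68, ERBB3, ITGAV, CRIM1, SLC6A20, RDH11, KRT8, MCM7 and DES. FPKM scales the fragments of a gene to its length and to the mapped fragments of the library, so levels of different genes can be set side by side.

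Melanin is made from tyrosine within a membrane-bound organelle of the lysosome family. The protein PMEL first forms amyloid fibrils in the early melanosome. Tyrosinase and its relatives then deposit pigment on these fibrils, while transporters set the ions and pH of the lumen and small GTPases of the RAB family bring in cargo or move the mature organelle. The retinal pigment epithelium makes melanin mainly before birth, and choroidal melanocytes are a separate pigmented cell type that uses the same enzymes.

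PMEL and TYRP1 had lower levels with the label AAV-PDGF-D than with AAV-GFP. PMEL was at 36.7 ± 1.13 FPKM with AAV-PDGF-D and 66.3 ± 11.0 FPKM with AAV-GFP (SD, n = 3 each), and TYRP1 was at 14.0 ± 0.877 FPKM with AAV-PDGF-D and 25.0 ± 6.34 FPKM with AAV-GFP (SD, n = 3 each). TYR lay in the same direction with a smaller difference that did not reach the fold threshold. SLC45A2, RAB27A and RAB38 were not called, and RAB38 was higher rather than lower in each AAV-PDGF-D library. OCA2, MLANA and DCT had mean levels below 1 FPKM.

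**Figure D1:**
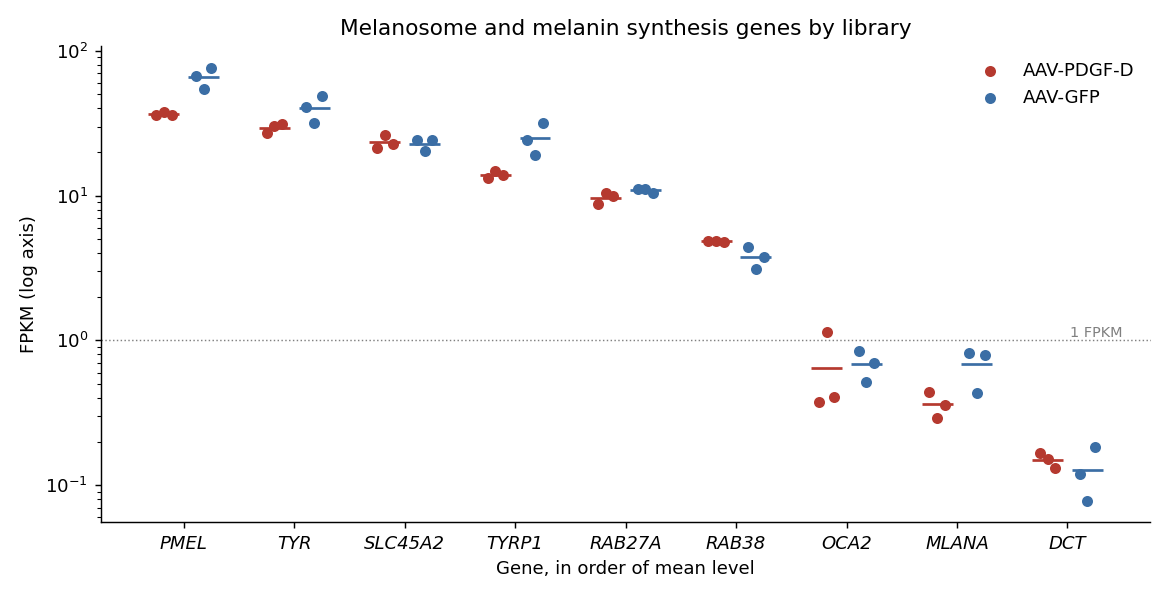
FPKM (log axis) of the 9 genes in each library, with AAV-PDGF-D in red on the left and AAV-GFP in blue on the right of each pair, and lines at the group means (n = 3 each). The groups were apart for PMEL, TYRP1, TYR and RAB38 and overlapped for the other 5 genes, and OCA2, MLANA and DCT lay mostly below 1 FPKM.

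To be called, a gene needed an adjusted p from limma no higher than 0.1, a change of 1.5-fold or more and a mean of 1 FPKM or more, as in the thresholds of the study's methods. Of the 9 genes, 2 were called lower and 0 higher. Over all 11444 rows that reached a mean of 1 FPKM, 1.75% were called lower and 2.01% higher. All 9 genes passed the minimum of 0.1 FPKM for testing, and 6 reached the mean of 1 FPKM that a call needs. The groups did not overlap for 4 of the 9 genes, of which PMEL, TYRP1 and TYR were lower and RAB38 higher with AAV-PDGF-D. Non-overlapping groups were common in this table, at 15.7% of all 13821 tested rows lower and 24.1% higher, so this count by itself is not a result about these genes. The exact permutation test of 3 against 3 libraries cannot go below p = 0.1, the value it gave for each of these 4 genes (two-sided).

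PMEL, the structural protein of the melanosome fibrils, was the most abundant of the 9 genes. It was at 36.3, 38.0 and 35.8 FPKM in the AAV-PDGF-D libraries, against 67.4, 54.7 and 76.7 FPKM in the AAV-GFP libraries. The lowest AAV-GFP library thus lay well above the highest AAV-PDGF-D library. The log2 fold change of PMEL was -0.84 (SE 0.11, limma adjusted p = 0.00293, 95% interval -1.09 to -0.59), a level 0.56 times that of AAV-GFP. In bulk RNA, fewer cells of a type and less RNA per cell cannot be told apart. PMEL was called lower in each of the 18 other settings tried, with log2 fold changes between -0.97 and -0.73. Without both libraries with hemoglobin the PMEL log2 fold change was -0.80 (limma adjusted p = 0.0512).

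The tyrosinase family has 3 members, with levels far apart. TYRP1, the tyrosinase-related protein that acts late in the synthesis of brown-black melanin and stabilizes tyrosinase, was at 13.2, 14.9 and 13.9 FPKM in the AAV-PDGF-D libraries, against 24.3, 19.0 and 31.6 FPKM in the AAV-GFP libraries. Every AAV-PDGF-D library lay below every AAV-GFP library, and the AAV-GFP libraries spread more widely. The log2 fold change of TYRP1 was -0.80 (SE 0.16, limma adjusted p = 0.0124, 95% interval -1.17 to -0.44). Without both libraries with hemoglobin the TYRP1 log2 fold change stayed at -0.80, but its adjusted p of 0.102 from limma just missed the threshold with 2 libraries a group.

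TYR, tyrosinase itself, catalyses the first and rate-limiting step of melanin synthesis. It was at 27.2, 30.2 and 31.1 FPKM in the AAV-PDGF-D libraries, against 40.8, 31.8 and 48.8 FPKM in the AAV-GFP libraries. The groups stood apart by less than 1 FPKM, with AAV-PDGF-D replicate 3 just under the second AAV-GFP library. The log2 fold change of TYR was -0.43 (SE 0.14, limma adjusted p = 0.0598, 95% interval -0.75 to -0.12), which passed the adjusted p but not the 1.5-fold threshold. TYR passed as lower at -0.60 on the log2 scale (limma adjusted p = 0.0111) without AAV-GFP replicate 2, the lowest AAV-GFP library for this gene. Without both libraries with hemoglobin it was -0.46 (limma adjusted p = 0.206). Without any other single library the TYR adjusted p from limma missed 0.1, from 0.106 without AAV-PDGF-D replicate 3 to 0.145 without AAV-GFP replicate 3, where the log2 fold change was -0.29.

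DCT, dopachrome tautomerase, works between these enzymes in the pathway and had the lowest level of the 9 genes. It was at 0.168, 0.152 and 0.132 FPKM in the AAV-PDGF-D libraries, against 0.120, 0.0783 and 0.182 FPKM in the AAV-GFP libraries. The groups overlapped, and the log2 fold change of 0.16 had a 95% interval of -0.62 to 0.95. TYR was thus expressed at a high level, TYRP1 at a moderate one and DCT at a low one in every library, and the low values of DCT leave a wide range of differences possible.

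**Figure D2:**
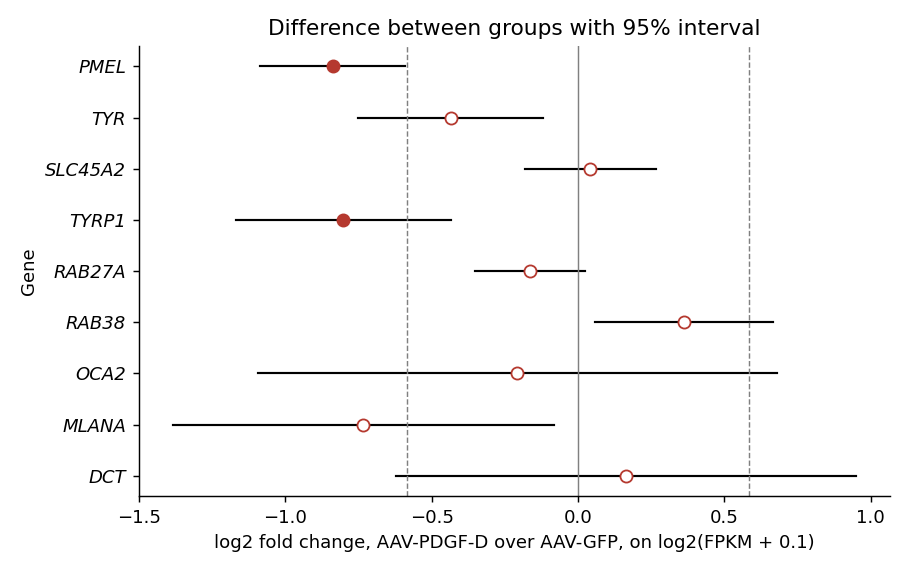
Log2 fold change of AAV-PDGF-D over AAV-GFP on the log2(FPKM + 0.1) scale, with the 95% interval from limma (n = 3 each), for the 9 genes in order of mean level. Filled points mark PMEL (-0.84) and TYRP1 (-0.80), the 2 genes called lower, and dashed lines mark 1.5-fold.

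Transporters of the melanosome membrane followed no common direction. SLC45A2, a transporter that helps to keep the pH of the melanosome suited to tyrosinase, was at 21.5, 26.4 and 22.8 FPKM in the AAV-PDGF-D libraries, against 24.3, 20.2 and 24.1 FPKM in the AAV-GFP libraries. The groups overlapped throughout. The log2 fold change of SLC45A2 was 0.04 (SE 0.10, limma adjusted p = 0.801), and its 95% interval of -0.18 to 0.27 lies inside 1.5-fold in both directions. OCA2, an anion channel of the melanosome, was at 0.374, 1.15 and 0.407 FPKM in the AAV-PDGF-D libraries, against 0.847, 0.515 and 0.697 FPKM in the AAV-GFP libraries. AAV-PDGF-D replicate 2 alone exceeded 1 FPKM, above every AAV-GFP library, while the other AAV-PDGF-D libraries were below all of them. The log2 fold change of OCA2 was -0.21 with a 95% interval of -1.09 to 0.68. Single libraries set this value, which was -0.66 without AAV-PDGF-D replicate 2, 0.04 without AAV-PDGF-D replicate 1 and 0.14 once the libraries with hemoglobin were both left out.

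MLANA, a small membrane protein that assists the sorting and processing of PMEL, had low levels. It was at 0.437, 0.291 and 0.356 FPKM in the AAV-PDGF-D libraries, against 0.816, 0.436 and 0.796 FPKM in the AAV-GFP libraries. The groups touched, since the first AAV-PDGF-D library and the second AAV-GFP library were nearly equal. The log2 fold change of MLANA was -0.73 (SE 0.28, limma adjusted p = 0.106), which did not pass, and its mean of 0.522 FPKM was below the minimum for a call.

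Neither RAB gene of the list was called. RAB38 directs tyrosinase and TYRP1 to the maturing melanosome. It was at 4.88, 4.83 and 4.77 FPKM in the AAV-PDGF-D libraries, against 4.43, 3.09 and 3.79 FPKM in the AAV-GFP libraries. All AAV-PDGF-D libraries were above all AAV-GFP libraries, and the log2 difference was 0.36 (SE 0.13, limma adjusted p = 0.0909, 95% interval 0.06 to 0.66), which did not reach 1.5-fold. With respiratory chain genes set level between the libraries, the RAB38 log2 fold change was 0.23 (limma adjusted p = 0.253). Without AAV-GFP replicate 2 it was likewise 0.23, with a limma adjusted p of 0.207, and without both libraries with hemoglobin 0.49 (limma adjusted p = 0.106). The limma adjusted p of RAB38 also missed 0.1 with TPM scaling (0.120), median-of-ratios scaling (0.124) and a replicate block (0.114). It missed 0.1 with no filter on low values (0.125) and no variance trend (0.126) as well. With 1 library left out it passed only without AAV-GFP replicate 1 (0.0449), and was otherwise 0.165 to 0.207. RAB27A tethers the mature melanosome to the myosin that carries it along actin. It was at 8.78, 10.5 and 9.87 FPKM in the AAV-PDGF-D libraries, against 11.1, 11.1 and 10.4 FPKM in the AAV-GFP libraries, with groups that overlapped and a log2 fold change of -0.17 (95% interval -0.35 to 0.02).

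In order of mean level over the 6 libraries, the 9 genes were PMEL (51.5 FPKM), TYR (35.0), SLC45A2 (23.2), TYRP1 (19.5), RAB27A (10.3), RAB38 (4.30), OCA2 (0.665), MLANA (0.522) and DCT (0.139). PMEL was above TYR in every library. SLC45A2 exceeded TYRP1 in all 3 AAV-PDGF-D libraries, whereas these genes overlapped over the AAV-GFP libraries, and OCA2 and MLANA overlapped in both groups. PMEL lay at the 87.9th percentile of level among tested rows and DCT at the 2.08th. The summed FPKM of PMEL, TYRP1 and TYR was 76.7, 83.1 and 80.8 in the AAV-PDGF-D libraries, against 132, 106 and 157 in the AAV-GFP libraries.

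The AAV-GFP libraries differed among themselves. AAV-GFP replicate 2 was the lowest library of its group for 8 of the 9 genes, all but RAB27A, against 33.6% of all tested rows. In this library PMEL, TYRP1, TYR, RAB38 and SLC45A2 lay below their group mean by log2 differences of -0.26, -0.36, -0.32, -0.26 and -0.17, whereas RAB27A was at 0.04. In AAV-GFP replicate 3 PMEL, TYRP1 and TYR lay above it by 0.22, 0.37 and 0.29, while RAB38, SLC45A2 and RAB27A were at 0.02, 0.08 and -0.06. Within the AAV-PDGF-D libraries no deviation of PMEL, TYRP1 or TYR exceeded a log2 size of 0.12. The coefficient of variation of PMEL was 3.08% over the AAV-PDGF-D libraries and 16.6% over the AAV-GFP libraries, and that of TYRP1 was 6.27% and 25.4%. Whether the spread differs between the groups was not tested.

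Ratios within a library do not depend on how that library was scaled, and most of those given here set a gene against PMEL. TYRP1 over PMEL was 0.363, 0.393 and 0.388 in the AAV-PDGF-D libraries, against 0.361, 0.347 and 0.413 in the AAV-GFP libraries, so the groups overlapped. TYR over PMEL was 0.748, 0.796 and 0.870 in the AAV-PDGF-D libraries, against 0.605, 0.582 and 0.636 in the AAV-GFP libraries. This ratio was higher in every AAV-PDGF-D library, as TYR differed less than PMEL between the groups. SLC45A2 over PMEL averaged 0.641 ± 0.0512 with AAV-PDGF-D and 0.348 ± 0.0298 with AAV-GFP (SD, n = 3 each). RAB38 over PMEL averaged 0.132 ± 0.00385 with AAV-PDGF-D and 0.0573 ± 0.00823 with AAV-GFP (SD, n = 3 each). Because PMEL was taken as the denominator after it was called lower, higher ratios to PMEL restate that call. The exact permutation test gave p = 0.1 for each of the higher ratios, and 0.114 after Benjamini-Hochberg adjustment over 8 ratios. As 0.1 is the lowest value it can reach, the test cannot decide. TYRP1 over TYR, which does not use PMEL, was 0.485, 0.493 and 0.446 in the AAV-PDGF-D libraries, against 0.596, 0.597 and 0.648 in the AAV-GFP libraries. Its exact permutation p was likewise 0.1, and 0.114 after adjustment. This ratio in turn restates that TYRP1, which was called lower, differed more than TYR.

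**Figure D3:**
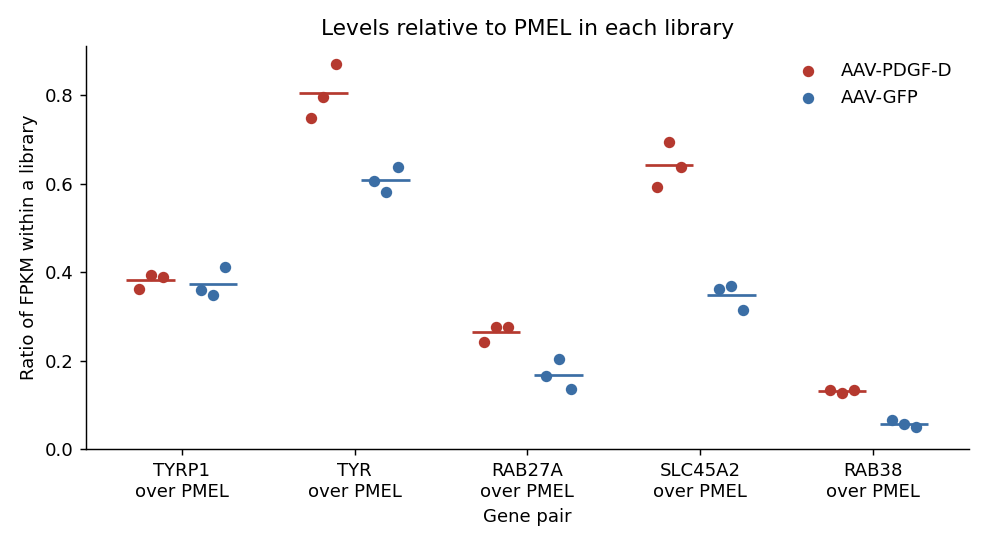
Ratio of the FPKM of 5 genes to that of PMEL within each library, with AAV-PDGF-D in red on the left and AAV-GFP in blue on the right, and lines at the group means (n = 3 each). The TYRP1 ratio overlapped between groups, at means of 0.381 and 0.373, while the other 4 ratios were higher in every AAV-PDGF-D library.

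The wider machinery of the melanosome was followed in 6 lists with 89 genes, of which 78 had a row that could be used and 66 a mean of at least 1 FPKM. In these lists 1 gene was called higher and 0 lower. Without a fold threshold, 13 genes (19.7%) passed the adjusted p in the higher and 6 (9.09%) in the lower direction, close to the 20.9% and 11.7% of all rows. The median log2 fold change over the 66 genes was 0.07, against 0.04 over all 11444 rows. The shares of these lists that passed in either direction were thus near those of the whole table.

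Of the channels, transporters and other lumen genes, 1 of 7 was called higher and 0 lower. SLC7A11, the cystine transporter that supplies sulfur for red-yellow pheomelanin and for glutathione, was at 3.57, 3.22 and 3.73 FPKM in the AAV-PDGF-D libraries, against 2.31, 2.30 and 2.16 FPKM in the AAV-GFP libraries. The groups lay far apart relative to their spread, and the log2 difference was 0.61 (SE 0.11, limma adjusted p = 0.00863). The call rested on a narrow margin, because it fell just below 1.5-fold without AAV-PDGF-D replicate 3 (0.57) or AAV-GFP replicate 3 (0.58), without both libraries with hemoglobin (0.58), and with a pseudocount of 1 (0.47). Median-of-ratios scaling gave SLC7A11 a log2 fold change of 0.58, and respiratory chain scaling one of 0.48. GPNMB, a melanosome and lysosome glycoprotein related to PMEL, was far more abundant than PMEL, at 472 ± 12.6 FPKM with AAV-PDGF-D and 527 ± 22.2 FPKM with AAV-GFP (SD, n = 3 each). Its log2 fold change of -0.16 (limma adjusted p = 0.0487, and 0.181 without both libraries with hemoglobin) did not reach 1.5-fold. CLCN7, a chloride-proton exchanger of lysosomes and melanosomes, had one of -0.31 (limma adjusted p = 0.0245, and 0.161 without both libraries with hemoglobin) and was not called.

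Of the genes that sort and process PMEL, 0 of 8 were called. CD63, the tetraspanin that loads PMEL into vesicles within the endosome, was at 728 ± 5.59 FPKM with AAV-PDGF-D and 670 ± 37.6 FPKM with AAV-GFP (SD, n = 3 each), with a log2 fold change of 0.12. APOE, a lipoprotein on which PMEL fibrils form, was at 125 ± 12.8 FPKM with AAV-PDGF-D and 138 ± 14.7 FPKM with AAV-GFP (SD, n = 3 each), with -0.14. Of the BLOC and AP-3 complexes, which carry enzymes from endosomes to the melanosome, 0 of 23 genes were called, and their median log2 fold change was 0.07. RAB32, which acts together with RAB38 in this traffic, was at 130 ± 2.13 FPKM with AAV-PDGF-D and 127 ± 3.25 FPKM with AAV-GFP (SD, n = 3 each). The RAB32 log2 fold change of 0.04 had a 95% interval of -0.05 to 0.13. AP3D1, a subunit of AP-3, had a log2 fold change of 0.10.

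Of the genes that transport and tether melanosomes, 0 of 11 were called. Without a fold threshold, 5 (45.5%) passed the adjusted p in the higher and 1 (9.09%) in the lower direction, against 20.9% and 11.7% of all rows. RAB1A and KIF5B, the most abundant, had log2 fold changes of 0.28 and 0.18. The genes that follow were singled out after their values were seen. MLPH, melanophilin, links RAB27A to myosin Va and was at 11.2, 10.5 and 11.1 FPKM in the AAV-PDGF-D libraries, against 8.63, 7.59 and 8.17 FPKM in the AAV-GFP libraries, with a log2 fold change of 0.43 (limma adjusted p = 0.00781). MYO7A, the myosin that holds melanosomes at the apical side of the pigment epithelium, was at 2.78, 2.44 and 2.87 FPKM in the AAV-PDGF-D libraries, against 3.49, 3.67 and 4.12 FPKM in the AAV-GFP libraries, with -0.47 (limma adjusted p = 0.0267). Both fell short of 1.5-fold, in opposite directions, although MYO7A was called lower with respiratory chain scaling (-0.60).

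Of the regulators of pigment genes, 0 of 10 were called. MITF, the transcription factor that drives PMEL, TYR and TYRP1 in pigment cells, was at 33.7, 33.8 and 35.9 FPKM in the AAV-PDGF-D libraries, against 32.6, 33.6 and 32.3 FPKM in the AAV-GFP libraries. The MITF libraries of both groups lay close together, with a log2 fold change of 0.07 and a 95% interval of -0.04 to 0.18. OTX2, which acts with MITF in the pigment epithelium, was at 33.4, 39.8 and 39.1 FPKM in the AAV-PDGF-D libraries, against 45.8, 42.2 and 50.2 FPKM in the AAV-GFP libraries, with -0.30 (limma adjusted p = 0.0434, and 0.151 without both libraries with hemoglobin). OTX2 was thus lower in every AAV-PDGF-D library but by less than 1.5-fold. PAX6, an eye field factor singled out after its values were seen, had a log2 fold change of -0.32 (limma adjusted p = 0.00821). BHLHE40, chosen in the same way, differed in the other direction, at 13.8 ± 0.382 FPKM with AAV-PDGF-D and 10.2 ± 0.636 FPKM with AAV-GFP (SD, n = 3 each). Its log2 fold change was 0.43 (limma adjusted p = 0.00578), short of 1.5-fold. Of the melanocortin, KIT and endothelin signals, 0 of 7 were called, and GNAS and DKK1, the most abundant, had log2 fold changes of 0.11 and -0.02. KITLG, the ligand of KIT and likewise singled out afterwards, was at 11.4 ± 0.168 FPKM with AAV-PDGF-D and 7.86 ± 0.287 FPKM with AAV-GFP (SD, n = 3 each), with 0.53 (limma adjusted p = 0.00261), short of 1.5-fold.

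**Figure D4:**
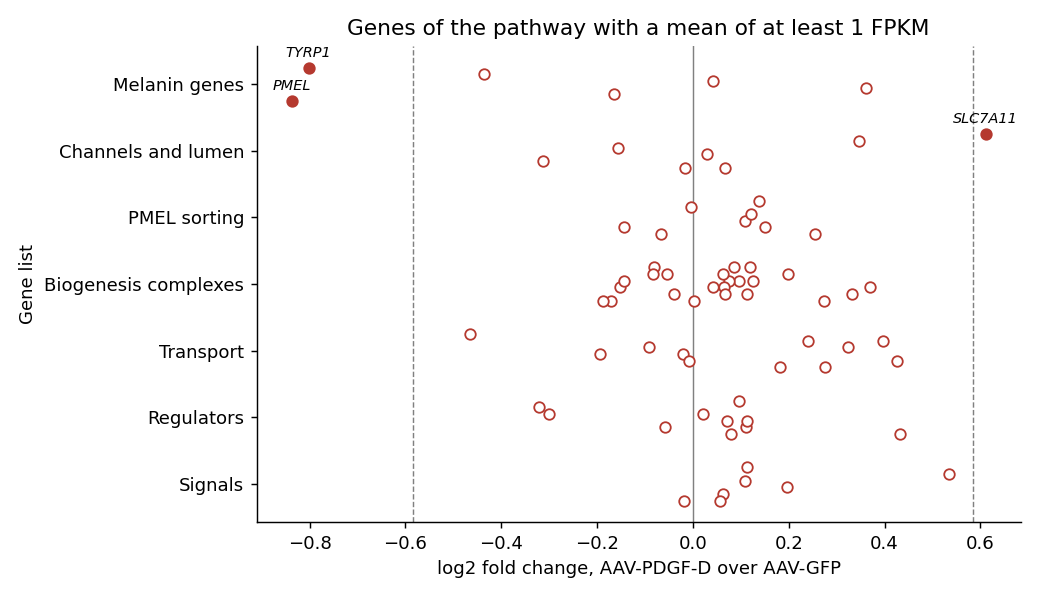
Log2 fold change of AAV-PDGF-D over AAV-GFP for the genes with a mean of at least 1 FPKM in the melanin gene list (6 genes) and in the 6 wider lists (66 genes). Filled points are called genes, which are PMEL and TYRP1 on the left and SLC7A11 on the right, and dashed lines mark 1.5-fold.

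Markers of the cell types that could hold melanin were compared with the labels. Of 22 listed markers of the pigment epithelium, 21 had a row and 17 a mean of at least 1 FPKM, with 0 called. Without a fold threshold, 6 of the 17 (35.3%) passed the adjusted p in the lower and 2 (11.8%) in the higher direction, against 11.7% and 20.9% of all rows. Those in the lower direction were RDH10, SERPINF1, TRPM3, ITGAV, CRIM1 and SLC6A20, and those in the higher direction were RDH11 and KRT8. RDH11 had the largest change of the 17, at 88.0 ± 3.09 FPKM with AAV-PDGF-D and 59.6 ± 4.46 FPKM with AAV-GFP (SD, n = 3 each). Its log2 fold change was 0.56 (limma adjusted p = 0.0017), and that of KRT8 was 0.19 (limma adjusted p = 0.0212). RDH10, a retinol dehydrogenase, had a log2 fold change of -0.37 (limma adjusted p = 0.00208). TRPM3, a cation channel, had one of -0.45 (limma adjusted p = 0.0124). SERPINF1, the secreted factor PEDF, was at 262 ± 5.36 FPKM with AAV-PDGF-D and 329 ± 36.0 FPKM with AAV-GFP (SD, n = 3 each), with -0.33 (limma adjusted p = 0.0184, and 0.110 without both libraries with hemoglobin). SLC16A8, a lactate transporter of the pigment epithelium, was at 0.173, 0.297 and 0.406 FPKM in the AAV-PDGF-D libraries, against 1.25, 1.12 and 1.69 FPKM in the AAV-GFP libraries. Its log2 fold change was -1.92 (limma adjusted p = 0.00437), or -0.86 with a pseudocount of 1, and its mean was below the minimum for a call. It reached this minimum with TPM scaling (-2.10, called lower). That scaling raises the values of every library against a fixed minimum, so that 12266 rather than 11444 rows could be called. The part of pigment epithelium RNA in the lower PMEL and TYRP1 was not tested. The summed level of the list was 4317 to 4376 FPKM with AAV-PDGF-D and 4156 to 4304 FPKM with AAV-GFP, most of it from genes shared with other epithelia such as KRT8 and EZR. RPE65, the isomerase that defines the mature pigment epithelium, was at only 0.588, 0.671 and 0.840 FPKM in the AAV-PDGF-D libraries, against 1.03, 0.792 and 1.29 FPKM in the AAV-GFP libraries. BEST1, the gene behind the VMD2 promoter, was at 0.411 ± 0.0846 FPKM with AAV-PDGF-D and 0.436 ± 0.0898 FPKM with AAV-GFP (SD, n = 3 each). RPE65 and BEST1, picked after their values were seen, were thus low in a table labelled as RPE-choroids. LRAT, TTR, MERTK and RLBP1 were also low, at mean levels of 0.145, 1.81, 2.11 and 2.12 FPKM. SERPINF1, TRPM3 and RDH5 were high, at mean levels of 295, 52.9 and 44.8 FPKM.

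Of 11 markers of choroidal melanocytes, 9 had a row and 2 a mean of at least 1 FPKM, ERBB3 and TRPM1. The summed level of the list was 95.9 to 104 FPKM with AAV-PDGF-D and 75.7 to 78.6 FPKM with AAV-GFP, nearly all of it from ERBB3, which many epithelia express. ERBB3 was higher, at 95.8 ± 3.97 FPKM with AAV-PDGF-D and 69.9 ± 2.93 FPKM with AAV-GFP (SD, n = 3 each). Its log2 fold change of 0.45 (limma adjusted p = 0.00188) did not reach 1.5-fold. SOX10, a defining melanocyte factor, was at 0.117, 0.119 and 0.0760 FPKM in the AAV-PDGF-D libraries, against 0.343, 0.318 and 0.484 FPKM in the AAV-GFP libraries, so it was low throughout and every AAV-PDGF-D library lay below every AAV-GFP library. The SOX10 log2 fold change was -1.23 (limma adjusted p = 0.0255), but its mean was below the minimum for a call and the size rested on the pseudocount, at -0.32 with 1 FPKM and -1.78 with 0.01 FPKM. The SOX10 adjusted p from limma was 0.135 without both libraries with hemoglobin and just missed 0.1 without AAV-GFP replicate 3. TRPM1, a channel of melanocytes that MITF controls, was called lower, at 2.81, 3.29 and 2.60 FPKM in the AAV-PDGF-D libraries, against 4.83, 3.43 and 5.31 FPKM in the AAV-GFP libraries. TRPM1 had a log2 fold change of -0.61 (limma adjusted p = 0.0423), and the call was lost without AAV-PDGF-D replicate 3 (-0.53), AAV-GFP replicate 1 (-0.55) or AAV-GFP replicate 3 (-0.48), without both libraries with hemoglobin (-0.48) and with a pseudocount of 1 (-0.49). AAV-GFP replicate 2 was the lowest library of its group for TRPM1, as it was for 8 of the 9 melanosome and melanin synthesis genes. PAX3 and KIT, further melanocyte markers, averaged 0.0223 and 0.540 FPKM with AAV-PDGF-D and 0.00522 and 0.648 FPKM with AAV-GFP. No listed marker with a row was at 0 in all 6 libraries. The part of melanocyte RNA in the lower PMEL and TYRP1 was not tested.

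Macrophages can take up pigment. Of 12 macrophage markers, 10 had a row and 2 a mean of at least 1 FPKM, CD68 and CSF1R, with a summed level of 21.4 to 23.4 FPKM with AAV-PDGF-D and 18.8 to 20.9 FPKM with AAV-GFP. These 2 markers went in opposite directions. CD68 was at 20.9 ± 0.646 FPKM with AAV-PDGF-D and 18.2 ± 0.979 FPKM with AAV-GFP (SD, n = 3 each). Its log2 fold change of 0.20 (limma adjusted p = 0.0531) did not reach 1.5-fold. CSF1R was called lower (log2 fold change -0.95, limma adjusted p = 0.0230), but its mean fell below the minimum for a call without AAV-GFP replicate 2 or AAV-GFP replicate 3. The defining leukocyte gene PTPRC averaged 0.0231 FPKM with AAV-PDGF-D and 0.0400 FPKM with AAV-GFP. Of 18 listed cell division genes, 17 had a mean of at least 1 FPKM. Of these 17, 8 were called higher and 0 lower, against 2.01% and 1.75% of all rows. The median log2 fold change over the 18 genes was 0.65. MCM7 alone passed the adjusted p in the lower direction, with a log2 fold change of -0.23 (limma adjusted p = 0.0344). Of 14 listed markers of fibroblasts, pericytes and smooth muscle, 13 had a mean of at least 1 FPKM and 0 were called. Of the 13, 6 (46.2%) passed the adjusted p in the lower direction and 1 (7.69%) in the higher direction, against 11.7% and 20.9% of all rows. The 1 in the higher direction was DES, with a log2 fold change of 0.26. COL3A1, a fibrillar collagen, had a log2 fold change of -0.58 (limma adjusted p = 0.00637), just short of 1.5-fold, and was called lower with TPM scaling (-0.62), median-of-ratios scaling (-0.62) and respiratory chain scaling (-0.72), and without replicate 1 or 2 of either group (-0.63 to -0.59). The summed level of this list was 1992 to 2089 FPKM with AAV-PDGF-D and 2121 to 2338 FPKM with AAV-GFP. The part of cell division or of these cells in the lower pigment genes was not tested.

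**Figure D5:**
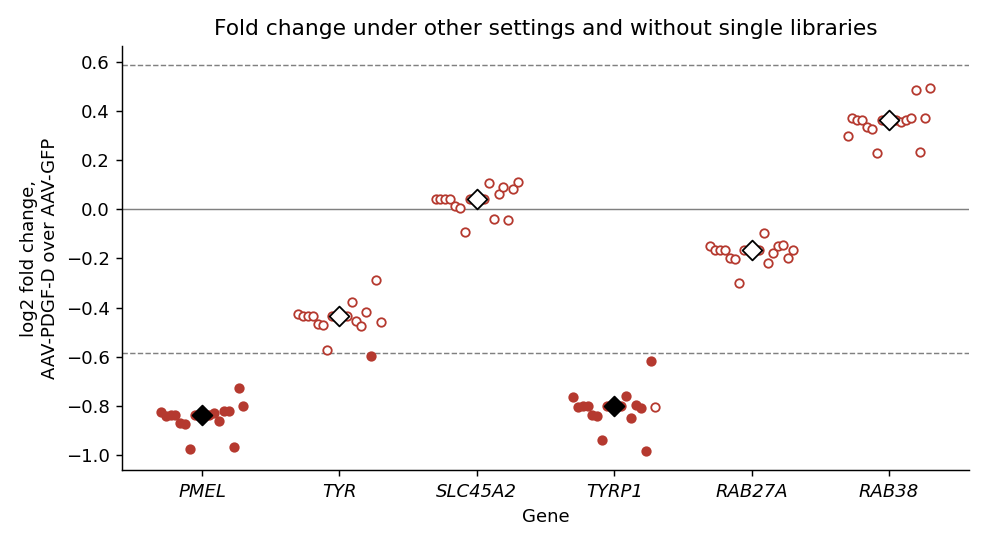
Log2 fold change of AAV-PDGF-D over AAV-GFP for the 6 genes with a mean of at least 1 FPKM, as reported (diamonds, black where called) and under 18 other settings (circles, filled where called), with dashed lines at 1.5-fold. PMEL was called lower in all 18 and TYRP1 in 17, while SLC45A2 stayed between -0.09 and 0.11.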

How the data were processed

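RNA of 6 libraries was sequenced by a company for the authors. Reads were mapped to mouse mm10 with STAR (2.4.2a) and gene values derived with RSEM (1.2.29), per the methods and the submitters' processing notes. The deposited FPKM values were computed by the authors per gene and library. The rows are human genes, of a build and annotation not given in the sources used here. Without counts, count models were not run, and the read depth is unknown. In rows below 0.1 FPKM the densest 0.1-wide window of log2 ratios put the relative depth of the libraries between 0.998 and 1.19 times that of AAV-GFP replicate 1, an approximate value.

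A linear model was fitted to log2(FPKM + 0.1) in limma (3.58.1, R 4.3.3), using a mean-variance trend. It covered 13821 rows whose mean reached 0.1 FPKM, and Benjamini-Hochberg adjustment ran over all of them. This scale understates changes of low genes. The genes and lists were chosen with earlier results of these data known. Named genes were the members and, in each wider list, the 2 of highest mean and up to 4 called genes of largest change. Others are marked as chosen after their values were seen, as were the cell type markers TRPM1, SOX10, CSF1R, SLC16A8, RDH10, SERPINF1, TRPM3, COL3A1, RPE65, BEST1, PAX3, KIT and PTPRC. The same holds for RDH5, RDH11, KRT8, LRAT, TTR, MERTK, RLBP1, ERBB3, CD68, MCM7 and DES. MFSD12, split over 2 rows, was left out. Alternatives changed the pseudocount, the filter, the scaling, the variance model or the thresholds, added a replicate block, or left out libraries.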

Additional observations from a re-analysis of the deposited data

How the results depend on the processing

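Of the 9 melanosome and melanin synthesis genes, 2 were called lower, and 1 (PMEL) without both libraries with hemoglobin, where fewer samples entered the fit. Leaving out 1 library gave 2 to 3 called lower. Without a fold threshold 1 (RAB38) was called higher, against 0. Over 18 settings 1 call of these genes was lost (TYRP1), 3 were gained (TYR in 2 settings and RAB38 in 1) and 0 turned direction. In the wider lists, 1 gene was called higher and 0 lower. The 1 higher became 0 with a pseudocount of 1, median-of-ratios scaling, respiratory chain scaling and without both libraries with hemoglobin, and 0 to 1 with 1 library left out. Respiratory chain scaling turned the 0 lower into 1. No fold threshold gave 13 higher and 6 lower.

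Over all rows, 230 were called higher and 200 lower (53.5% higher). A pseudocount of 1 gave 148 and 110, TPM scaling 252 and 323 (43.8% higher), median-of-ratios scaling 193 and 252 (43.4% higher), respiratory chain scaling 144 and 428 (25.2% higher) and no fold threshold 2396 and 1341 (64.1% higher). The median log2 fold change was -0.10 with respiratory chain scaling, against 0.04 as deposited. The 43 respiratory chain genes set level there had a median log2 fold change of 0.11. Of these, 13 (30.2%) passed the adjusted p in the higher and 0 in the lower direction, against 20.9% and 11.7% of all rows. Library factors were 1.01 to 1.10 with AAV-PDGF-D and 0.931 to 0.969 with AAV-GFP. Dividing by them lowers log2 fold changes by construction. With TPM scaling 12266 rather than 11444 rows could be called. Single libraries left out gave between 213 and 271 higher and between 140 and 232 lower. What lies behind the difference in scale between the groups was not tested.

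Deviations of same-numbered libraries correlated at -0.20, 0.0039 and -0.13, so the numbers show no pairing. The highest correlation over all pairs was 0.29, between AAV-PDGF-D replicate 3 and AAV-GFP replicate 1, the 2 libraries with hemoglobin. What these libraries share was not tested. With the replicate number as a block, 234 rows were called higher and 199 lower, and PMEL (adjusted p = 0.00932 from limma) and TYRP1 (adjusted p = 0.0215 from limma) were again called lower.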
